A study of Mus musculus with 9 samples.

Results

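The genes described here are 37 markers of B and T lymphocytes, taken by name from the 54347 genes of a mouse RNA-seq table. They comprise 16 B cell genes, 15 T cell genes, 4 genes shared by both lineages (Cd37, Ltb, Ccr7 and Cd52) and 2 genes of cytotoxic cells (Gzmb and Nkg7), and the rule names them without a threshold on any measured value. The 9 libraries came from pancreatic neuroendocrine tumors of INS-p25OE mice and from normal islets. In these mice Ins2-rtTA, driven by the insulin 2 promoter, switches on tetOp-p25GFP under doxycycline, which was given in the drinking water from weaning. p25 is a fragment of the Cdk5 activator p35. The groups compared held 3 libraries each. M1 to M3 were functional tumors, M4 to M6 were non-functional tumors, and NI1 to NI3 were beta islets of normal mice. Transgene-negative littermates, housed with the transgenic animals, served as the study's normal controls. All mice were on the C57BL/6 background, the mouse of M2 was female and the others were male, and ages at collection are not given in the sources used here. The transgene is active at a low level without doxycycline, and each library was made from bulk tissue.

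A B cell senses antigen with a membrane immunoglobulin (IgM or IgD) that signals through the Cd79a and Cd79b chains, while Cr2 and Cd22 tune that signal. The B cell programme is held by transcription factors such as Pax5, Spib and the coactivator Pou2af1. A T cell senses peptide on MHC molecules with a receptor of variable chains that signals through the Cd3 chains and the kinases Lck and Zap70, helped by the coreceptors Cd4 and Cd8. Pancreatic islets hold few lymphocytes, but lymph nodes and lymphoid clusters lie in and around the pancreas. In bulk tissue, fewer cells of a type and less RNA per cell cannot be told apart.

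Library totals ran from 36468280 to 63637175 counts, and a count of 3 stood for 0.0425 to 0.119 CPM (counts scaled to the library total by TMM, which sets a common scale between libraries). The insulin gene Ins2 was abundant in every library, with 7313 to 88719 CPM in tumors and 88895 to 248686 CPM in islets. Cdk5r1, the gene of p35 and hence of p25, was at 149 to 401 CPM in the tumors, 18.4 CPM in NI2 and 12.5 CPM in NI3. In NI1 it was at 280 CPM, inside the range of the tumors. On this 1 gene the library goes against its label, and it is called the library labelled NI1. Summed lists of other genes went both ways. NI1 lay above the tumors for genes that respond to dissociation (651 against 106 to 177 CPM) and beta cell markers (121927 against 18407 to 116760 CPM). It lay inside their range for B cell members (306 against 53.4 to 537 CPM) and other islet cell markers (1077 against 98.3 to 3125 CPM). The cause was not tested. Mitochondrial genes took 32.1% of the counts of M4 and 1.76% to 8.41% of those of the other libraries. Counts of called members are given with and without NI1 and M4 where they change. Other values use all 9 libraries unless stated.

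Promoter sequence is shown for 3 B cell members that were lower in tumors, Cr2 with the largest difference among them, and for 1 T cell member beside them. RefSeq (GRCm38.p6) start sites were available for 23 of the 37 members, and the 250 bases before the start are printed in the direction of the gene. Cr2 lies on the minus strand (chr1:195176720-195176969), as do Tnfrsf13c (chr15:82224381-82224630) and Spib (chr7:44532072-44532321), while Cd3d lies on the plus strand (chr9:44981536-44981785). Capitals mark ACCACA, the reverse complement of the RUNX core TGTGGT, in Tnfrsf13c, 2 overlapping matches of the EBF core CCCNNGGG in Spib, and the TCF and LEF core CTTTGA, once on each strand, in Cd3d. Cr2 holds none of the 5 motifs searched.
Cr2: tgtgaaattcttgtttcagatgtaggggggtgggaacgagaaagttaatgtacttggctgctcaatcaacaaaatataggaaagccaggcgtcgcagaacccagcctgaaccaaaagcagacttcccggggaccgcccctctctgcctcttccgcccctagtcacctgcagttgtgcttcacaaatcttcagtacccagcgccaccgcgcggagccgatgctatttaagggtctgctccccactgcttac
Tnfrsf13c: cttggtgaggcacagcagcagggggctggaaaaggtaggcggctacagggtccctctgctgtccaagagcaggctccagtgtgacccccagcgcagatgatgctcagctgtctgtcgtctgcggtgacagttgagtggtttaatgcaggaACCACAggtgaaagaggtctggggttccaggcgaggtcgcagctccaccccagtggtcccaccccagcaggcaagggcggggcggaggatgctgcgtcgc
Spib: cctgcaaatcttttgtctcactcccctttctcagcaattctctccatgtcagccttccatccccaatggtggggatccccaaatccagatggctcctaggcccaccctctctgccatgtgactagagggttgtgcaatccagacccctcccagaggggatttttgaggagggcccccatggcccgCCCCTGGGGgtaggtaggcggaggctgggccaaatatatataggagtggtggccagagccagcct
Cd3d: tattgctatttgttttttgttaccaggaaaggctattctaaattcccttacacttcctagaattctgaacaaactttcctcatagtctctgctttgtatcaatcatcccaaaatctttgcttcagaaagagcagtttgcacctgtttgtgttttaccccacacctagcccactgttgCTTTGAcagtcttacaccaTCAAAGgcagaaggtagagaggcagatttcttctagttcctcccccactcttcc

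The EBF core, read on both strands, stood in this window of 3 of the 10 B cell members with a start site (Bank1, Cd22 and Spib), in 1 of 9 T cell members (Zap70), and in 11.82% of all 32851 windows. The RUNX core stood in 2 of 10 B cell members (Fcer2a and Tnfrsf13c), 2 of 9 T cell members (Lck and Zap70) and both cytotoxic members, against 14.05% of all windows. The TCF and LEF core stood in Cd3d and Zap70 and in 0 of 10 B cell members, against 13.83% of windows. The octamer ATGCAAAT, the element to which Oct factors and Pou2af1 bind, was in none of the members' windows and in 1.6% of all windows. The PU.1 and Spi-B motif GAGGAAGT was in the windows of Cd37 and Cd5 and in 2.44% of all windows. A match is a run of letters and not a measured binding site.

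The question put to tumors and islets was whether lymphocyte transcripts differed between them. B cell transcripts were lower in tumors: 8 of the 16 B cell members passed edgeR's quasi-likelihood test at a Benjamini-Hochberg adjusted p under 0.05, against 0.258% of the 15532 genes tested (40 genes). No member passed in the other direction, at an adjusted p (0% of all genes) or at an unadjusted p under 0.05 (10.7% of all genes). DESeq2 called 764 of 15408 genes higher and no member among them. limma-voom called 0 genes of any kind higher, so it is silent on the members. The 8 members were Cr2, Ighd, Ms4a1, Fcer2a, Tnfrsf13c, Pax5, Spib and Pou2af1. Among the 15 T cell members, 0 passed at an adjusted p and 14 had an unadjusted p under 0.05, all lower in tumors, where 9.14% of all genes had one. The B cell members had 14 of 16 below that unadjusted threshold and the shared members 3 of 4. DESeq2 called 14 B cell and 9 T cell members lower (3.17% of its genes) and limma-voom called 9 and 0 (0.212%).

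The median log2 fold change, tumors over islets, was -3.65 over the B cell members, -2.66 over the T cell members and 0.03 over all genes tested. All 31 of these genes were tested, as were the 4 shared members and Nkg7, but Gzmb missed the filter of at least 1 CPM in at least 3 libraries. The filter used CPM before TMM scaling. On that scale 4 B cell genes, the called Cr2 and Tnfrsf13c among them, and 2 T cell genes reached 1 CPM in no tumor. They entered through the islets alone. In all, 9 of 16 B cell and 10 of 15 T cell members reached 1 CPM in under 3 tumors and needed islet libraries to enter. Being high in islets is thus partly a condition of entry for such members. Without any filter 11 B cell and 0 T cell members were called (0.31% of genes). The difference between the B and T cell lists was not tested. The plot of fold changes sets the members side by side.

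**Figure D1:**
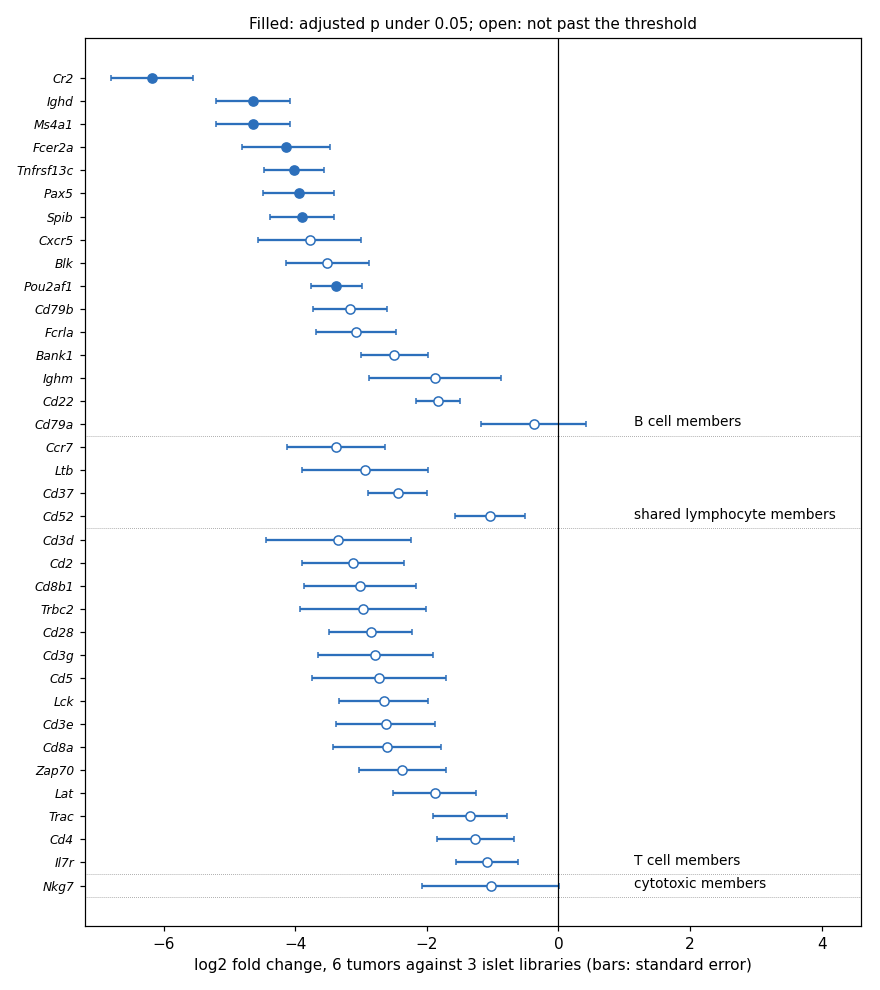
Log2 fold change of the 36 tested members, 6 tumors over 3 islet libraries, with standard errors; filled points passed the test at an adjusted p under 0.05. The 8 filled points are all B cell members, and Cd79a, at -0.38, lies nearest to 0.

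Cr2, complement receptor 2 of mature and follicular B cells and follicular dendritic cells, had the largest difference among the members. Its level in the 6 tumors was 0.0909 CPM at the lowest, 0.192 at the median and 0.283 at the highest, while NI1, NI2 and NI3 held 4.22, 28.1 and 11.03 CPM. Every tumor was thus far below every islet library, and the tumor mean was 1.34% of the islet mean. The log2 fold change was -6.18 (SE, its standard error, 0.62, adjusted p = 0.00417 from edgeR).

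Ms4a1 encodes CD20, a surface protein of B cells from the pre-B stage until plasma cell differentiation. Tumors ran from 0.368 CPM through a median of 0.671 to 1.78, and the islets held 13.0, 28.6 and 28.6 CPM. The groups did not overlap, at a log2 fold change of -4.64 (SE 0.56, adjusted p = 0.00993). Ighd, the constant region of IgD, which mature naive B cells carry, moved by the same amount. Its tumor values were 0.538 CPM at the lowest, 1.30 at the median and 2.80 at the highest against 15.4, 44.4 and 50.9 CPM in islets (log2 fold change -4.64, SE 0.57, adjusted p = 0.00993). Fcer2a, the low-affinity IgE receptor CD23 of follicular B cells, ran from 0.200 through 0.417 to 1.58 CPM in tumors and was at 6.14, 13.5 and 13.2 CPM in islets, without overlap (log2 fold change -4.14, SE 0.67, adjusted p = 0.0437).

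Tnfrsf13c encodes the BAFF receptor, which mature B cells need to survive. Tumors held 0.121 CPM at the lowest, 0.240 at the median and 0.327 at the highest, and islets 2.97, 4.42 and 3.74 CPM. The spread within each group was small beside the gap, and its log2 fold change was -4.01 (SE 0.46, adjusted p = 0.00711).

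The transcriptional regulators among the members were lower as well. Pax5, which commits cells to the B lineage, ran from 0.382 through a median of 0.731 to 1.82 CPM in tumors and was at 11.4, 18.8 and 14.1 CPM in islets (log2 fold change -3.95, SE 0.54, adjusted p = 0.0185). Spib, an Ets factor of B cells and plasmacytoid dendritic cells, ran from 0.443 through 0.782 to 1.70 CPM against 7.80, 18.0 and 14.9 CPM (log2 fold change -3.89, SE 0.49, adjusted p = 0.0108). Pou2af1, the coactivator OBF-1, ran from 0.564 through 1.92 to 2.41 CPM against 16.1, 21.4 and 19.7 CPM (log2 fold change -3.37, SE 0.39, adjusted p = 0.00792). In none of the 3 did a tumor reach the lowest islet library.

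A further 6 B cell members did not overlap between the groups but missed the adjusted threshold. Cd79b was at 1.09 to 6.34 CPM in tumors and 13.3 to 29.6 CPM in islets (log2 fold change -3.17, adjusted p = 0.060), and Blk, a Src family kinase of B cells, had a log2 fold change of -3.51 (adjusted p = 0.0624). Cd22, an inhibitory receptor that binds sialic acid, differed less, with 3.36 to 7.69 CPM in tumors against 13.8 to 26.9 CPM (log2 fold change -1.83, adjusted p = 0.0704). Adjusted p was 0.0891 for Fcrla, an Fc receptor-like protein inside B cells, 0.106 for the adaptor Bank1 and 0.112 for Cxcr5, the chemokine receptor that leads B cells to follicles. Without NI1, Cd79b, Cd22, Fcrla and Bank1 passed (edgeR adjusted p = 0.0126, 0.0118, 0.0152 and 0.0163), while Blk and Cxcr5 were not tested. In all, 14 of 16 B cell members had every tumor below every islet library, against 3.17% of all genes tested. Of the 14, 4 (Cr2, Tnfrsf13c, Blk and Cxcr5) reached 1 CPM in no tumor and entered through the islets alone. On CPM before TMM scaling, entry itself fixed that order for these 4, so they add no support to the count. Cxcr5 shares its locus with Bcl9l on the other strand, and Ms4a1, Pax5, Cd22 and Bank1 have annotated antisense genes. The kit does not keep strand, so reads from exon sequence shared with such a partner cannot be told apart. These overlaps are of whole gene spans, and overlap of exons was not checked.

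**Figure D2:**
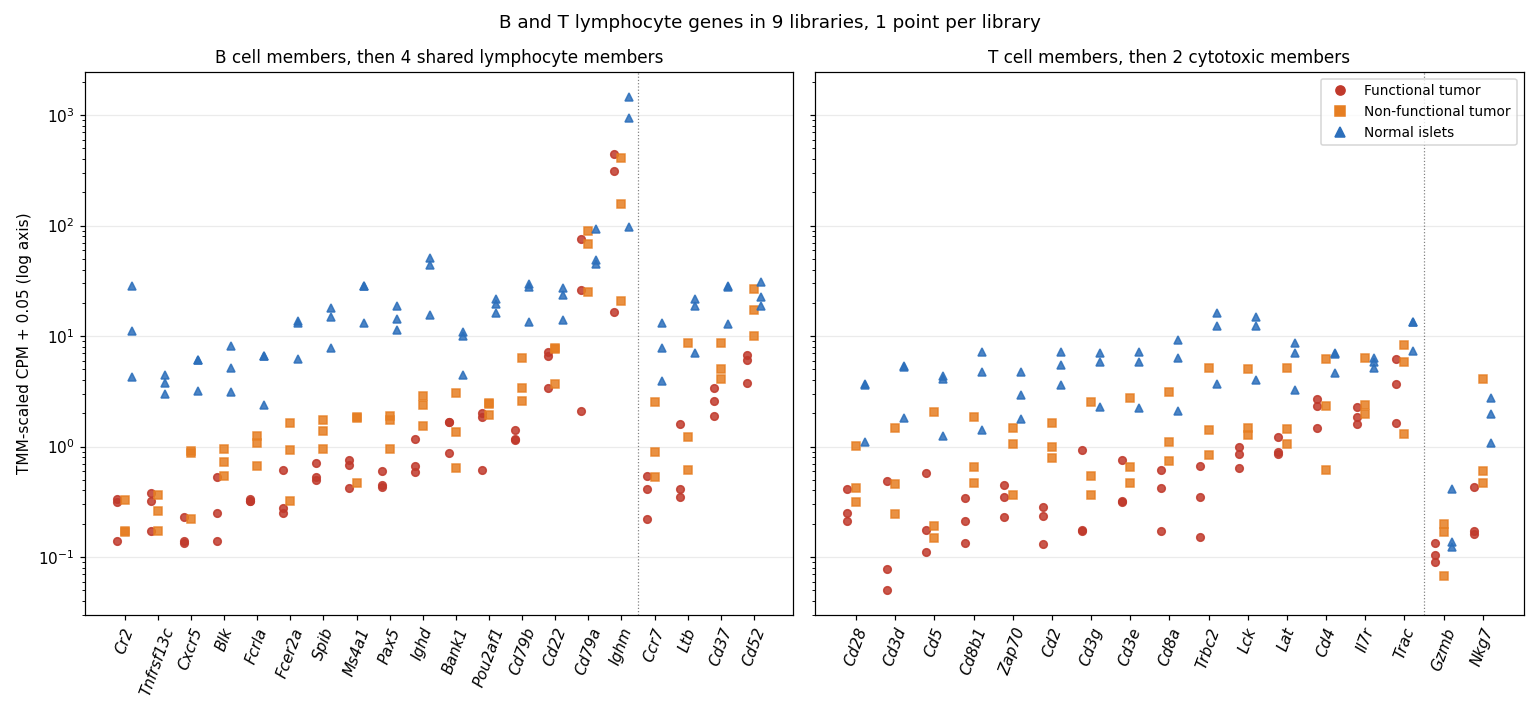
TMM-scaled CPM of the 37 members in each library, on a log axis after adding 0.05, with functional tumors as circles, non-functional tumors as squares and islets as triangles. Tumor and islet points are apart for 14 of 16 B cell members and for 4 of 15 T cell members, while Cd79a and Ighm overlap.

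Cd79a and Ighm were the 2 B cell members whose groups overlapped. Cd79a, the alpha signalling chain of the B cell receptor, stood at 25.9, 2.04 and 75.8 CPM in M1, M2 and M3, at 24.8, 68.0 and 89.8 CPM in M4, M5 and M6, and at 92.4, 44.9 and 48.9 CPM in NI1, NI2 and NI3. M3, M5 and M6 lay above NI2 and NI3, and M2 lay far below all other libraries. The log2 fold change was -0.38 (SE 0.79, adjusted p = 0.824), and it was 0.023 without NI1 and 0.15 without NI1 and M4.

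Cd79a and Cd79b form a single heterodimer, so their levels were set beside each other per kb of exon. The ratio of Cd79a to Cd79b, each in CPM per kb, was 1.58 in NI2, 1.62 in NI3 and 6.85 in NI1. In tumors it was 22.5 in M1, 1.84 in M2, 54.6 in M3, 3.84 in M4, 26.1 in M5 and 26.4 in M6. The ratio in M2 was close to that of NI2 and NI3, whereas 4 of 6 tumors stood above 20. The levels of Cd79a per kb ran from 1.399 to 61.6 in tumors and from 30.8 to 63.4 in islets, and those of Cd79b from 0.762 to 4.43 and from 9.26 to 20.7. The annotation places no other gene over Cd79a (chromosome 7, 24897381 to 24902197).

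**Figure D3:**
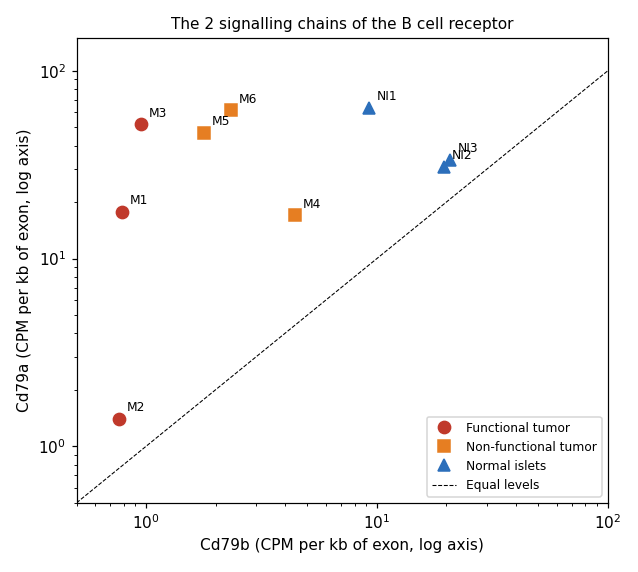
Level of Cd79a against Cd79b in CPM per kb of exon, both axes log, 1 point per library, with a dashed line where they are equal. NI2, NI3 and M2 lie near the line, and M1, M3, M5 and M6 lie above 20 times it.

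Ighm, the constant region of IgM, was the most abundant member in M2 to M5 and in all islet libraries. It stood at 16.6, 313 and 446 CPM in M1, M2 and M3, at 410, 157 and 20.7 CPM in M4, M5 and M6, and at 96.2, 1471 and 936 CPM in NI1, NI2 and NI3. Tumors differed among themselves by more than an order of magnitude, and the log2 fold change of -1.88 (SE 1.00, adjusted p = 0.323) was within that spread. The ratio of Ighm to Ighd, each in CPM per kb, was 6.30 in NI1, 33.4 in NI2 and 18.5 in NI3. It was 7.46 in M6 and 15.1 in M1, but 586 in M2, 727 in M3, 177 in M4 and 105 in M5. Both genes are constant-region segments of chromosome 12, and reads of rearranged variable exons are not part of them.

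T cell transcripts were low in all libraries, between 0 and 8.32 CPM in tumors and between 1.05 and 16.03 CPM in islets. Their log2 fold changes ran from -1.09 (Il7r, adjusted p = 0.238) to -3.34 (Cd3d, adjusted p = 0.168), and adjusted p from 0.126 to 0.264. Among the chains of the T cell receptor complex, Cd3e ran from 0.262 through a median of 0.508 to 2.70 CPM in tumors against 2.18, 7.10 and 5.77 CPM in NI1, NI2 and NI3 (log2 fold change -2.63, SE 0.75, adjusted p = 0.152). Cd3d was at 0 in M1, where a count of 3 is 0.0604 CPM, and Cd3g was at 0.121 to 2.50 CPM in tumors against 2.23 to 6.96 CPM. Of these 3 chains, Cd3e and Cd3g overlapped between the groups and Cd3d did not.

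The constant region of the beta chain, Trbc2, ran from 0.101 through 0.705 to 5.07 CPM in tumors and was at 3.65, 16.03 and 12.2 CPM in islets (log2 fold change -2.97, SE 0.96, adjusted p = 0.167). Trbc2 is nearly identical to Trbc1, and the split of reads between them is uncertain. Trac, the alpha constant region, differed less, at 1.25 to 8.32 CPM against 7.34 to 13.2 CPM (log2 fold change -1.34, adjusted p = 0.227).

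The coreceptors showed unequal differences. Cd8a, which marks cytotoxic T cells and some dendritic cells, ran from 0.121 through 0.626 to 3.05 CPM in tumors against 2.04, 9.20 and 6.27 CPM in islets (log2 fold change -2.60, SE 0.82, adjusted p = 0.164). Its partner Cd8b1 had a log2 fold change of -3.01 (adjusted p = 0.152). Cd4, carried by helper T cells and by some dendritic cells, ran from 0.563 through 2.29 to 6.14 CPM against 4.56, 7.002 and 6.82 CPM (log2 fold change -1.26, SE 0.59, adjusted p = 0.264). Among signalling genes, the kinase Lck ran from 0.584 through 1.08 to 4.99 CPM against 3.96, 14.96 and 12.2 CPM (log2 fold change -2.66, adjusted p = 0.148). Zap70 (log2 fold change -2.37), the adaptor Lat (-1.88), the adhesion receptor Cd2 (-3.12), the costimulator Cd28 (-2.85) and Cd5 (-2.73), which dampens receptor signals, had adjusted p between 0.126 and 0.196.

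M4 held the highest tumor level of all 15 T cell members, of all 4 shared members and of Nkg7, but of only 6 of 16 B cell members. It was also highest for 13 of 13 pan-leukocyte, 9 of 9 MHC class II, 10 of 12 macrophage and 6 of 6 fibroblast and pericyte genes. For plasma cell, acinar and endothelial genes it was highest in 0 of 16, 0 of 8 and 0 of 6. The trait is thus not particular to T cell genes, and its share over all genes is not given here. M4 stood above the library labelled NI1 for 11 of 15 T cell members and for 1 of 16 B cell members (Ighm). It did so for 12 of 13 pan-leukocyte and 12 of 12 macrophage genes as well. The other 5 tumors were all below every islet library for 15 of 15 T cell members and for 14 of 16 B cell members, against 4.44% of all genes, a count made after the values were seen. With M4 included, 4 of 15 T cell members (Cd3d, Cd2, Cd28 and Zap70) had every tumor below every islet library, against 3.17% of all genes. Of the T cell members, 2 (Cd3d and Cd28) reached 1 CPM in no tumor, and entry through the islets alone fixed their order before TMM scaling. They add no support to either T cell count, nor do the 4 such B cell members to the 14 of 16. Without M4 the test called 10 B cell and 4 T cell members lower (0.454% of genes), and the T cell median was -3.39 beside a B cell median of -3.88. Without NI1 it called 10 B cell members of the 12 tested and 3 T cell members (Cd8b1, Cd2 and Lck) of 13 (3% of genes). Without both it called 10 B cell members of 12 and 7 T cell members of 9 (2.37% of genes). Without NI2, or without NI3, edgeR called no member (0.0454% and 0.0389% of genes), while 21 and 22 members were lower at an unadjusted p under 0.05 (3.8% and 3.72% of genes).

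Relative to the mean of the islet libraries, the median B cell member stood at 3.43% in M1, 4.18% in M2, 5.08% in M3, 12.5% in M4, 6.86% in M5 and 13.4% in M6. The median T cell member stood at 5.22%, 6.31%, 13.3%, 50.1%, 12.9% and 11.7% in the same tumors. The B cell value was the lower in 5 of 6 tumors and the higher in M6, and the widest gap was in M4. The library labelled NI1 stood at 46.1% of the mean of NI2 and NI3 for B cell members and at 33.8% for T cell members. Against NI2 and NI3 alone, the medians in M4 were 10.7% for B cell and 39.3% for T cell members.

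**Figure D4:**
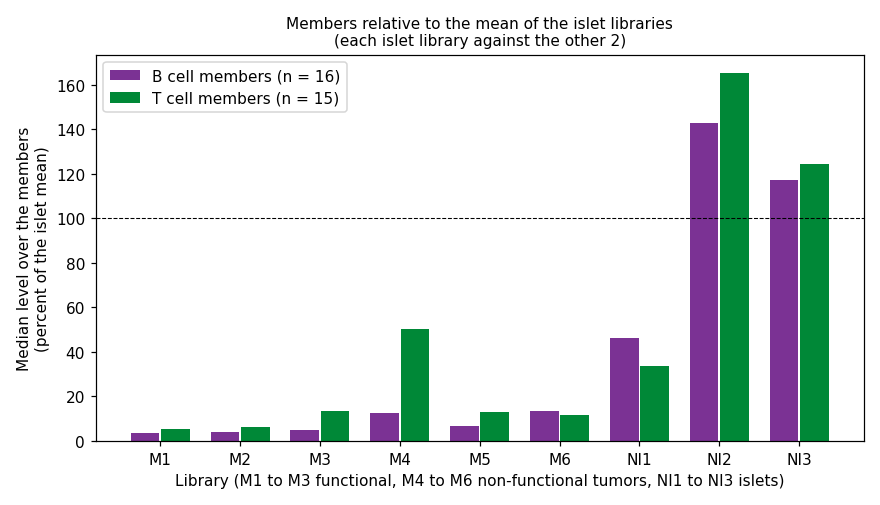
Median level over the 16 B cell and over the 15 T cell members in each library as a percent of the islet mean, where each islet library is set against the other 2. All tumor bars lie at or below 13.4% except the T cell bar of M4, at 50.1%.

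Summed CPM gave another view of the balance between the lineages. Over all 16 B cell members and 15 T cell members the ratio of summed B cell to summed T cell CPM was 4.44 to 40.0 in tumors and 6.81 to 15.004 in islets, and it was led by Ighm and Cd79a. With these 2 genes set aside, a choice made after the values were seen, it was 0.569 in M4, 0.911 to 1.48 in the other 5 tumors, 2.61 in NI1, 2.22 in NI2 and 2.28 in NI3.

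Among the shared members, Cd37, a tetraspanin of mature lymphocytes, ran from 1.83 through 3.70 to 8.60 CPM in tumors and was at 12.8, 28.1 and 27.7 CPM in islets (log2 fold change -2.44, SE 0.45, edgeR adjusted p = 0.0704, and 0.0125 without NI1). Ltb, lymphotoxin beta, reached 8.52 CPM in M4 and 0.297 to 1.56 CPM in the other tumors, against 7.05, 18.6 and 21.6 CPM in islets (adjusted p = 0.168). Ccr7, the receptor that brings lymphocytes and dendritic cells into lymphoid tissue, had a log2 fold change of -3.38 (edgeR adjusted p = 0.126, and 0.0245 without NI1). Cd52, which macrophages carry too, overlapped between the groups, at 3.71 to 26.6 CPM against 18.6 to 30.7 CPM (log2 fold change -1.04, adjusted p = 0.306). Cd37 overlaps Tead2, and Cd52 overlaps Crybg2, on the other strand.

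Of the cytotoxic members, Gzmb, granzyme B, was at 0.0176 to 0.147 CPM in tumors and 0.0743 to 0.366 CPM in islets, close to a count of 3. Nkg7, a granule protein of killer cells, was at 4.04 CPM in M4, 0.113 to 0.545 CPM in the other tumors and 1.03, 1.90 and 2.70 CPM in islets (log2 fold change -1.03, adjusted p = 0.604).

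Each kind of tumor was also set against the same 3 islet libraries, in a fit of all 3 groups. In functional tumors 14 members were lower at an adjusted p under 0.05, against 0.431% of all genes, and these were 12 B cell members, Cd37 and Cd2. The 4 B cell members not called were Cd79a, Ighm, Cd22 and Bank1. Pax5, Spib and Ighd each had an adjusted p of 0.0127 there, and Cd2 one of 0.0271. In non-functional tumors 0 members were called (0% of all genes), 24 had an unadjusted p under 0.05 (6.19% of all genes), and DESeq2 called 17 (0.985%) and limma-voom 0. For limma-voom the share of all genes is not given here, so its 0 is not a result about the members. Without NI1 edgeR called 10 members lower in non-functional tumors (1.04% of genes), 9 of them B cell members, and without NI1 and M4 it called 9 (0.454%). Without any 1 of M1, M2 or M3 the functional count was 0 members, without NI2 it was 1 and without NI3 it was 4. It was 9 without M5, 16 without M6, 18 without M4 and 22 without NI1. The share of all genes called in these settings is not given here. A change in the members thus cannot be told from a change in all calls.

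Functional and non-functional tumors were then compared directly. No member and no gene passed at an adjusted p (0% of 15532), while 16 members had an unadjusted p under 0.05, all lower in functional tumors, against 5.58% of genes. They were 6 B cell, 3 shared and 6 T cell members and Nkg7. DESeq2 called 4 members (0.72% of genes), namely Cd79b, Pax5, Cd52 and Cd2, and limma-voom called 0. The share of all genes that limma-voom called is not given here, so its 0 is not a result about the members. Every functional tumor lay below every non-functional one for 14 members, against 6.24% of genes.

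Cd2, an adhesion receptor of lymphocytes, was at 0.0806, 0.184 and 0.236 CPM in M1, M2 and M3 and at 1.59, 0.934 and 0.739 CPM in M4, M5 and M6. Pax5 was at 0.403, 0.552 and 0.382 CPM in functional and 1.82, 0.909 and 1.69 CPM in non-functional tumors. Cd79b was at 1.13, 1.09 and 1.36 CPM against 6.34, 2.56 and 3.34 CPM. In all 3 the groups of 3 tumors were apart, at log2 fold changes of -2.67, -1.71 and -1.77 and an adjusted p of 0.45. In the other direction, Cr2, Tnfrsf13c and Ighm had log2 fold changes of 0.24, 0.17 and 0.40 (SE 0.77, 0.58 and 1.27), each smaller than its error.

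Other genes of the same pathways were read from lists. Among further genes of B cell receptor signalling, none was higher in tumors at an adjusted p under 0.05. No gene of any kind was (0% of 15532), so this says nothing about that list. Ptpn6 and Prkcb, which many cells use and which were the most abundant of that list, had log2 fold changes of -0.52 and -0.85 (adjusted p = 0.168 and 0.414). Of 16 genes of B cell transcription and maturation, 1 passed as lower, Fcmr, the Fc receptor for IgM, at 0.184 to 1.87 CPM in tumors and 6.51 to 20.5 CPM in islets (adjusted p = 0.029). Its most abundant members, Mef2c and Bcl11a, had log2 fold changes of -0.30 and 0.14.

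Of 16 further genes of T cell receptor signalling, 12 were tested and 1 passed as lower. It was Cd27, a costimulator of T cells and memory B cells, at 0 to 0.182 CPM in tumors and 1.10 to 2.78 CPM in islets (adjusted p = 0.0488). Skap1 and Fyb, the most abundant, had log2 fold changes of 0.25 and 0.28. No gene of the T helper and regulatory list (8 of 12 tested, Ikzf2 among the most abundant, median log2 fold change -1.93) or of the natural killer list (3 of 15 tested, Ccl5 and Il2rb most abundant, median -1.96) passed in either direction. The counts at an unadjusted p under 0.05 were 5 and 2, all lower in tumors, where 9.14% of all genes were lower.

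Of 16 plasma cell genes 15 were tested and 0 passed in either direction. At an unadjusted p under 0.05, 6 were lower and 1 higher, against 9.14% and 10.7% of all genes. Igkc, the kappa light chain, was at 32.2 to 1545 CPM in tumors and 453 to 1409 CPM in islets, and Igha, the constant region of IgA, at 11.6 to 2399 CPM and 88.0 to 691 CPM. Both were highest in M5, the tumor in which Ms4a1 was at 0.418 CPM. Of 9 MHC class II genes, H2-DMb2, a peptide-loading chain, passed as lower (0.453 to 3.17 CPM against 10.1 to 22.6 CPM, adjusted p = 0.029). Cd74 and H2-Aa, which macrophages and dendritic cells carry as well, had log2 fold changes of -0.52 and -0.45 (adjusted p = 0.616 and 0.695).

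Markers of other cell types and states were read in the same libraries, and their part in the lymphocyte differences was not tested. Of 12 immediate-early and heat shock genes that respond to dissociation, 10 passed as lower in tumors. Fos was at 1.41 to 3.92 CPM in tumors and 156 to 1045 CPM in islets (log2 fold change -7.78, adjusted p = 0.000991), Jun had a log2 fold change of -3.08 (adjusted p = 0.0132), and Fosb, Junb, Egr1, Hspa1a, Ier2, Dusp1, Zfp36 and Nr4a1 also passed. The list's summed level was 106 to 177 CPM in tumors and 651 to 2795 CPM in islets. The summed level of 8 acinar genes was 0.977 to 1.09 CPM in functional tumors, 44.7 to 321 CPM in non-functional tumors and 607 to 11347 CPM in islets, with 7 of 7 tested genes, Amy2a5 and Ctrb1 among them, not overlapping between tumors and islets. The 12 macrophage genes summed to 479 to 1353 CPM in tumors and 201 to 454 CPM in islets, with a median log2 fold change of 1.31. None passed at an adjusted p, where 0% of all genes passed as higher. At an unadjusted p under 0.05, 10 of 12 were higher, against 10.7% of all genes. Lyz2 and C1qa were among the list's most abundant. Summed pan-leukocyte genes were at 492 CPM in M4, at 159 to 273 CPM in the other 5 tumors and at 307 to 499.8 CPM in islets, so that M4 alone overlapped the islets. The summed MHC class II level was 209 to 537 CPM in functional and 718 to 2098 CPM in non-functional tumors.

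**Figure D5:**
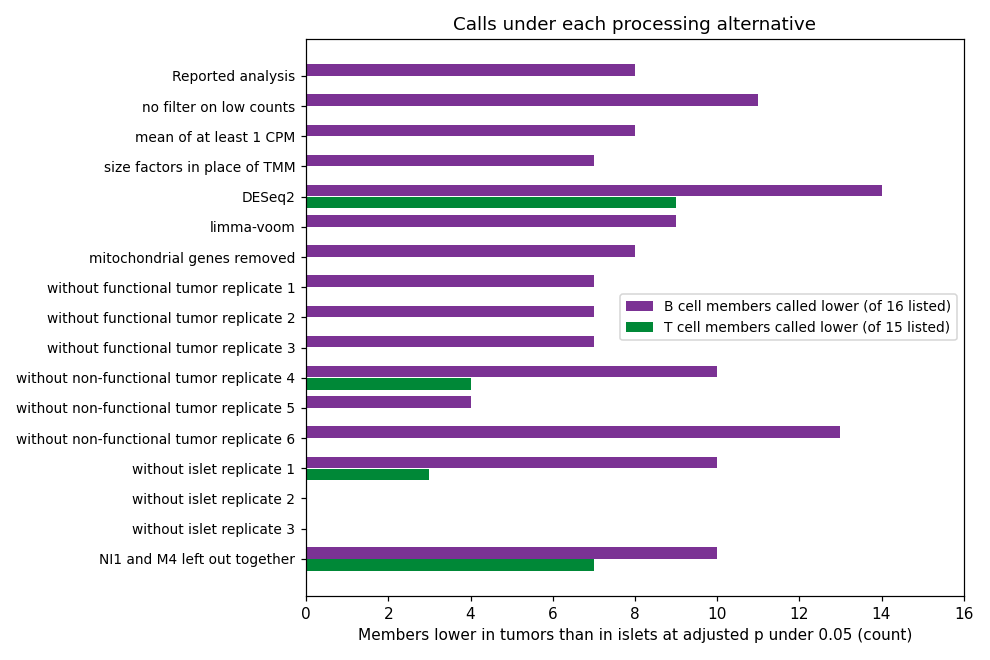
Number of B cell (of 16 listed) and T cell (of 15 listed) members called lower in tumors at an adjusted p under 0.05, in the reported analysis and in each alternative, where non-functional tumor replicate 4 is M4 and islet replicate 1 is NI1. B cell calls run from 0 to 14 and T cell calls from 0 to 9, and both are 0 without NI2 or without NI3.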

How the data were processed

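RNA was isolated from 3 functional tumors, 3 non-functional tumors and 3 islet samples, and single-end reads were sequenced from a kit that does not keep strand. The authors trimmed reads with Trimmomatic 0.38 and quantified transcripts with Salmon 1.4.0 against mm10. They deposited whole-number estimated counts per gene, in a table named for TPM, without scaling between libraries. The step from transcripts to genes is not given in the sources used here. The study describes its samples as biological replicates, but the labels do not tie each library to an animal.

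Gene symbols and coordinates came from GENCODE for GRCm38. A gene entered the test if 3 or more of the 9 libraries reached 1 CPM before TMM scaling (15532 genes), whereas the printed CPM is TMM-scaled. Counts were set on a common scale by TMM and tested two-sided by quasi-likelihood in edgeR 4.0.16 (R 4.3.3). The Benjamini-Hochberg adjustment ran over all tested genes, and genes were called at an adjusted p under 0.05. Tumors against islets used 2 groups, and the other comparisons a fit of 3 groups. The standard error is the size of the log2 fold change divided by the square root of F. Levels between genes were compared per kb of the union of exons. DESeq2 1.42.0, limma-voom (limma 3.58.1), other filters and scalings, and omission of each library were alternatives. The code was tested on simulated data.

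All 37 members are accounted for. Of each other list the 2 genes of highest mean CPM and each gene past the test are named, except for items that are not reported here. Members and lists were chosen with earlier results of these data known. Promoter windows are from RefSeq. Reads carried no molecular identifiers, so a limit of 3 counts covers counting error only.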

Additional observations from a re-analysis of the deposited data

Results flagged for a closer look

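Over the 6 tumors, 37 members were checked for a tumor whose gap to its nearest neighbour is large beside the whole range, and 16 were marked. The rule is set to mark about 1 in 20 single checks by chance. The members share the same 6 libraries, so the checks are not independent and their number was not tested. In 15 of the 16 the tumor was M4, at the top. The T cell genes were Cd3e at 2.70 CPM, Cd3d at 1.43, Cd3g at 2.50, Cd4 at 6.14, Cd8a at 3.05, Cd8b1 at 1.78, Cd5 at 2.02, Cd28 at 0.951, Lck at 4.99, Lat at 5.07, Il7r at 6.34 and Trbc2 at 5.07 CPM. The others in M4 were Ltb at 8.52 CPM, Ccr7 at 2.50 and Nkg7 at 4.04 CPM, whose next tumor was at 0.545 CPM. None of the 16 B cell members was marked in M4. M4 also had the largest mitochondrial share (32.1%) and, among tumors, the highest summed MHC class II (2098 CPM) and macrophage (1353 CPM) levels. Its part in these values was not tested. The remaining mark was Pou2af1 at 0.564 CPM in M1, below the next tumor at 1.80 CPM.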

How the results depend on the processing

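The medians of both lists were negative under every alternative. Over the omission of single libraries the B cell median ran from -3.90 to -3.16 and the T cell median from -3.39 to -2.29. The number of members called lower in tumors (8) ran from 0 to 17 when 1 library was left out, while the share of all genes ran from 0.0389% to 3%. It was 26 with DESeq2 and was 19 without NI1 and M4, an alternative added after seeing the data. When an islet library is left out, 12 of 16 B cell and 13 of 15 T cell members stay tested, since fewer libraries can reach the filter. For functional tumors against islets (14) the count ran from 0 to 22 with 1 library left out, and was 22 without a filter, 32 with DESeq2 and 2 with limma-voom. It was 2 with the replicate block and 16 in the same 6 libraries without it. The labels give no pairing of same-numbered libraries. Deviations of same-numbered libraries correlated at -0.05, 0.03 and -0.16, and M1, M2 and M3 correlated best with NI2, NI3 and NI1. Deviations within groups of 3 depend on each other, so these correlations cannot decide whether a pairing exists. For non-functional tumors against islets (0) the count ran from 0 to 10 with 1 library left out, and was 7 without a filter, 17 with DESeq2 and 9 without NI1 and M4. For functional against non-functional tumors it was 4 with DESeq2 and 0 otherwise. For the comparisons by kind of tumor, shares of all genes are given only where printed above. The other counts may follow the number of all calls. Cd79a ran from -0.66 to 0.023 with 1 library left out, changed sign without NI1 (0.023) and was at 0.15 without NI1 and M4, and was never called. The cause of these changes was not tested. In tumors many members stood at under 1 CPM, where a count of 3 is 0.0425 to 0.119 CPM.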

Other observations

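Genes of lymphoid tissue stroma were read from a list of 14, of which 10 were tested and 0 passed in either direction. At an unadjusted p under 0.05, 4 were lower and 1 higher, against 9.14% and 10.7% of all genes. The most abundant, Clu and Ltbr, had log2 fold changes of -0.18 and 0.44 (adjusted p = 0.848 and 0.328). The genes that follow were singled out after their values were seen. Glycam1, a ligand for L-selectin made by high endothelial venules, had 0 counts in all 6 tumors and stood at 10.5, 1.10 and 3.92 CPM in NI1, NI2 and NI3, and it missed the filter of the test, which used CPM before TMM scaling. Ccl21a, a chemokine that attracts Ccr7-bearing cells, was at 0.383 to 14.3 CPM in tumors and 52.2 to 85.4 CPM in islets (log2 fold change -3.39, standard error 0.87, adjusted p = 0.148). Cxcl13, the ligand of Cxcr5, was at 0.862 to 6.11 CPM in tumors, 2.78 CPM in NI1, 18.3 CPM in NI2 and 13.9 CPM in NI3 (adjusted p = 0.152). Lyve1, of lymphatic vessels and some macrophages, went the other way, at 9.68 to 48.4 CPM in tumors and 3.24 to 8.48 CPM in islets (adjusted p = 0.139).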
